A study of Mus musculus with 18 samples.

Results

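The naive pluripotency transcription factors were measured here as 10 genes, NANOG, ZFP42, KLF2, KLF4, KLF5, ESRRB, TCFCP2L1, DPPA3, TBX3 and GBX2, and were taken by gene name from the array table, where they have 16 of the 45281 probes. The probes were chosen by name and no measured value entered the choice. One probe of KLF5 was detected on no array and was left out, so that 15 of the 22987 kept probes and 10 of the 16446 tested genes belong to the group. The study asked how FGF2 and BMP4 act on murine embryonic stem (ES) cells grown on PA6 cells, stromal feeder cells on which ES cells differentiate without serum. Total RNA of 18 cultures was read on Illumina MouseWG-6 bead arrays, with 1 fluorescence intensity per probe and 3 arrays in each of 6 groups, all collected on day 3. Co-cultures (ES/PA6) and mono-cultures of the stroma (PA6) were each kept in serum-free medium without growth factors (-GFs), with recombinant FGF2 at 20 ng/ml or with recombinant BMP4 at 10 ng/ml by the labels; for cultures on slides the study's methods give a lower BMP4 dose. By the study's methods the ES cells are knock-in cells with a green fluorescent reporter driven by the τ promoter, which is active in neurons, shared by all 3 co-culture groups, and had been kept undifferentiated on feeder fibroblasts with LIF. The mono-cultures hold no ES cells. A co-culture array mixes the RNA of ES-derived and stromal cells, so fewer cells of a type and less RNA per cell cannot be told apart.

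Naive pluripotency is the state of the preimplantation epiblast and of mouse ES cells kept with LIF. OCT4 and SOX2 are shared with the later, primed state, whereas the factors described here are lost or reduced as cells leave the naive state after implantation. Several of them, among them KLF4 and TCFCP2L1, are known to lie downstream of LIF and its signal transducer STAT3, while autocrine FGF signalling through ERK is known to favour exit from the naive state.

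The promoters of the members that moved together are shown for those with a match to a short motif of a pluripotency regulator, with 1 that has none. Of the 10 members, 7 matched the RefSeq promoter table of build GRCm38.p6 (TCFCP2L1 under its current symbol Tfcp2l1), with 9 promoters of 300 bases. Each runs from 250 bases before a start to 50 after it. That start is the annotated gene start except for Tfcp2l1 and the second promoters of Nanog and Esrrb. Capitals mark TTTGCAT, the core of the octamer bound by OCT4, ACAATG, a core bound by SOX proteins, CCACACC, a site of the KLF family, and TTCNNNGAA, the palindrome bound by STAT proteins, on either strand; AAGGTCA of ESRRB and GGTGTGA of T-box proteins were also searched.
Nanog, chr6:122707239-122707538, plus strand: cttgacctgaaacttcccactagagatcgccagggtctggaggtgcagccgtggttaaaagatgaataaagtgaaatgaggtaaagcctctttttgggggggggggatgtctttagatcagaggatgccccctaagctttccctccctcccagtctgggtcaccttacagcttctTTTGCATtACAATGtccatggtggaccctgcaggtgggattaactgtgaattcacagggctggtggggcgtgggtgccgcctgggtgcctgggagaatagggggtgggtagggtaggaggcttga
Zfp42, chr8:43306960-43307259, minus strand: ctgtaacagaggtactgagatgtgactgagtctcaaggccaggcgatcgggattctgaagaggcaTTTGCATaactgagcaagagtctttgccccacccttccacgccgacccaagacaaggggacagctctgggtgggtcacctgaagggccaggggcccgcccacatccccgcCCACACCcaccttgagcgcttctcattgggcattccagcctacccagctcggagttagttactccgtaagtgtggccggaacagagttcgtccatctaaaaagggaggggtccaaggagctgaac
Esrrb, chr12:86360867-86361166, plus strand: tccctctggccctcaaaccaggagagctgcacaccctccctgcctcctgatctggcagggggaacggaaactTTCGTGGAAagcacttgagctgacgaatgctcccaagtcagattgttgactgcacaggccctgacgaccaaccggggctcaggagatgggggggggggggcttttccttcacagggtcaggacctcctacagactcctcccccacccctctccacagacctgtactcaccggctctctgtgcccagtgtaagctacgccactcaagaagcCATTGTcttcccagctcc
Tfcp2l1, chr1:118627695-118627994, plus strand: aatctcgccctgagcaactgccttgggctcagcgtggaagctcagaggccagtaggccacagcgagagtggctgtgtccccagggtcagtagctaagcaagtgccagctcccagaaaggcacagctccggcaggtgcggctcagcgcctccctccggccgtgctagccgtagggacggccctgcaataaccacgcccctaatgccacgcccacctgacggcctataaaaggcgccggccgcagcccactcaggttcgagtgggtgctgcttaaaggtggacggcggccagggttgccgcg
The Nanog promoter holds the octamer core 75 bases before the gene start and the SOX core on the same strand with 1 base between them, and a second, overlapping Nanog promoter of the table holds the same pair. The Zfp42 promoter holds the octamer core, 185 bases before the start, and the KLF site. The Esrrb promoter shown holds the STAT palindrome and, past the start, the SOX core, whereas the second Esrrb promoter and those of Tfcp2l1, Klf2, Klf4 and Gbx2 hold none of the 6 motifs. Of all 32851 promoters of the table, 4.63% hold the octamer core, 12.6% the SOX core, 7.58% the KLF site, 8.3% the STAT palindrome, 4.72% the ESRRB site and 3.98% the T-box core. These matches are letters in a window and were not tested for binding.

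The members had little or no signal in the stroma alone, except for KLF2, KLF4 and TBX3. A co-culture array had 19365 to 20412 detected probes (detection p under 0.05 against the negative control beads) and a mono-culture array 17125 to 18391. At the main probe of each gene (the brightest), KLF5, ESRRB, TCFCP2L1 and DPPA3 were detected on none of the 9 mono-culture arrays, NANOG and ZFP42 on 1 and GBX2 on 2. A second, dim probe of ESRRB was detected on 1 of 3 PA6 arrays in -GFs medium, 0 with FGF2 and 3 with BMP4. KLF2, KLF4 and TBX3 were detected on all 9. Calls required more than a 1-unit change on the log2 scale and an adjusted p (Benjamini-Hochberg) below 0.1 in 1 limma fit over all genes and arrays, and each adjusted p given is from that fit. In -GFs medium 7 of the 10 members were called higher in ES/PA6 than in PA6. Of all genes 19.4% were called higher and 39.0% in either direction. Against the detection limit of the mono-cultures, ESRRB was at least 95.2-fold higher, NANOG at least 72.0-fold, GBX2 at least 57.6-fold, ZFP42 at least 54.1-fold, KLF5 at least 53.6-fold, TCFCP2L1 at least 27.0-fold and DPPA3 at least 23.5-fold (adjusted p from 1.07e-13 to 2.42e-10). The other 3 were not called: KLF2 differed by 0.93 ± 0.162 (SE), KLF4 by -0.59 ± 0.240 and TBX3 by 0.10 ± 0.213 on the log2 scale. Without ES/PA6 -GFs replicate 2, KLF2 was called as well (1.08). For these 3 genes a co-culture value contains stromal signal.

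**Figure D1:**
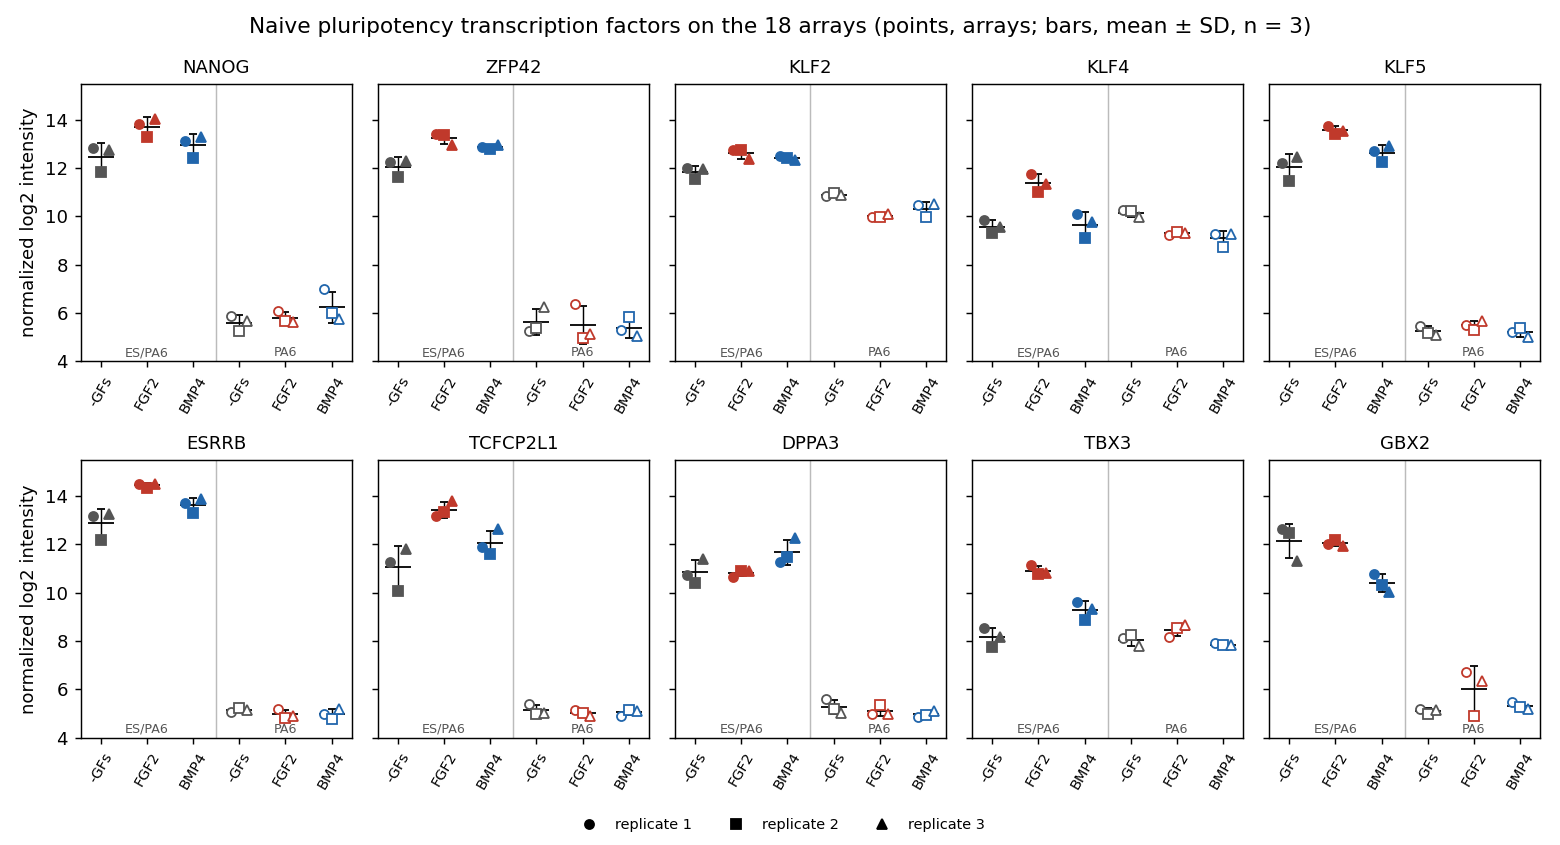
Normalized log2 intensity of the 10 members (1 panel each, main probe) on the 18 arrays, by group; filled points are ES/PA6 arrays, open points PA6 arrays, symbols give the replicate number and bars the mean ± SD (n = 3). Of the 10 members, KLF2, KLF4 and TBX3 were detected on all 9 PA6 arrays, and 8 have their 3 FGF2 co-culture arrays above the 3 -GFs arrays.

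FGF2 raised 7 of the 10 naive factors in the co-cultures and lowered none. TBX3 rose 6.75-fold, TCFCP2L1 5.20-fold, KLF4 3.49-fold, ESRRB 2.98-fold, KLF5 2.87-fold, NANOG 2.38-fold and ZFP42 2.28-fold. Of all 16446 genes 3.34% were called, made up of 2.14% higher and 1.20% lower. KLF2 passed the adjusted p and not the fold threshold, and DPPA3 and GBX2 were not called. The median log2 fold change of the 10 members was 1.39, and that of all genes -0.01. The 3 FGF2 arrays lay above the 3 -GFs arrays for 8 of the 10 members, an arrangement found for 9.86% of all genes.

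Among the factors closest to the core of the naive network, TCFCP2L1, a grainyhead-like transcription factor induced by LIF, had the largest change. Its normalized log2 intensities were 11.26, 10.09 and 11.82 in -GFs medium (replicates 1 to 3), 13.17, 13.32 and 13.81 with FGF2 and 11.90, 11.61 and 12.62 with BMP4. All FGF2 arrays were above all others, while the BMP4 and -GFs arrays overlapped. The log2 fold change under FGF2 was 2.38 ± 0.335 (SE; adjusted p 0.00039). ESRRB, an orphan nuclear receptor that can stand in for NANOG in self-renewal, measured 13.20, 12.17 and 13.25 in -GFs medium, 14.50, 14.34 and 14.50 with FGF2 and 13.73, 13.32 and 13.89 with BMP4. The FGF2 arrays were the highest and the closest together (SD of 0.0962, against 0.607 in -GFs medium), and the change was 1.58 ± 0.232 (adjusted p 0.00055). The second probe of ESRRB was near the background, detected on 1 array of 3 in each co-culture group, and changed by 0.02 ± 0.194. Its mean was 5.79, 5.80 and 5.95 in the ES/PA6 groups (-GFs, FGF2, BMP4) against 6.10, 5.68 and 6.40 in the PA6 groups, and the higher level in ES/PA6 seen at the main probe was not seen there. The homeodomain protein NANOG measured 12.84, 11.83 and 12.74 in -GFs medium, 13.84, 13.29 and 14.02 with FGF2 and 13.13, 12.43 and 13.30 with BMP4. The FGF2 arrays were above every -GFs array by a narrow margin, and replicate 2 was the lowest in each of the 3 groups. NANOG changed by 1.25 ± 0.335 (adjusted p 0.0345) and by 1.30 ± 0.320 at its second probe (adjusted p 0.0227 over all kept probes).

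The Krüppel-like factors KLF2, KLF4 and KLF5, zinc finger proteins that can replace one another in part in ES cell self-renewal, did not move by the same amount. KLF4 measured 9.86, 9.29 and 9.55 in -GFs medium, 11.76, 11.00 and 11.34 with FGF2 and 10.10, 9.10 and 9.78 with BMP4. The FGF2 arrays stood apart from both other groups, which overlapped. KLF4 rose by 1.80 ± 0.240 (adjusted p 0.000244), and its other 2 probes by 1.84 ± 0.223 and 2.01 ± 0.215. KLF5 measured 12.23, 11.46 and 12.45 in -GFs medium, 13.76, 13.41 and 13.53 with FGF2 and 12.71, 12.26 and 12.91 with BMP4, and its rise under FGF2 was 1.52 ± 0.225 (adjusted p 0.000568). KLF2 measured 12.02, 11.54 and 11.95 in -GFs medium, 12.74, 12.75 and 12.36 with FGF2 and 12.49, 12.41 and 12.34 with BMP4. Its 3 FGF2 arrays were above the -GFs arrays, by 0.78 ± 0.162 (adjusted p 0.00759), which is under the fold threshold.

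TBX3 is a T-box repressor that sustains NANOG expression in ES cells and is also used in later lineages. At the main probe of each gene, TBX3 had the largest change of the 10 members under FGF2. It measured 8.53, 7.77 and 8.15 in -GFs medium, 11.14, 10.77 and 10.80 with FGF2 and 9.63, 8.89 and 9.33 with BMP4. The 3 groups did not overlap, with FGF2 above BMP4 and BMP4 above -GFs. The FGF2 change was 2.75 ± 0.213 (adjusted p 1.08e-06) at the main probe and 1.41 ± 0.163 at the second, dimmer probe.

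Of the marker genes of the naive state, ZFP42 (REX1, a zinc finger protein) measured 12.25, 11.61 and 12.30 in -GFs medium, 13.41, 13.37 and 12.95 with FGF2 and 12.89, 12.81 and 12.96 with BMP4. Both treated groups lay above -GFs and overlapped each other, and the FGF2 change was 1.19 ± 0.341 (adjusted p 0.0491). DPPA3 (Stella), which protects maternal methylation marks in the zygote, measured 10.75, 10.40 and 11.41 in -GFs medium, 10.66, 10.92 and 10.90 with FGF2 and 11.25, 11.50 and 12.27 with BMP4. The FGF2 and -GFs arrays overlapped, with a difference of -0.03 and a 95% interval from -0.58 to 0.52. GBX2, a homeobox factor that is induced by LIF in ES cells and also patterns the neural plate, measured 12.64, 12.47 and 11.32 in -GFs medium, 12.04, 12.18 and 11.95 with FGF2 and 10.79, 10.33 and 10.04 with BMP4. FGF2 and -GFs overlapped (-0.09, 95% interval from -0.89 to 0.71), whereas the 3 BMP4 arrays were the lowest of the 9.

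**Figure D2:**
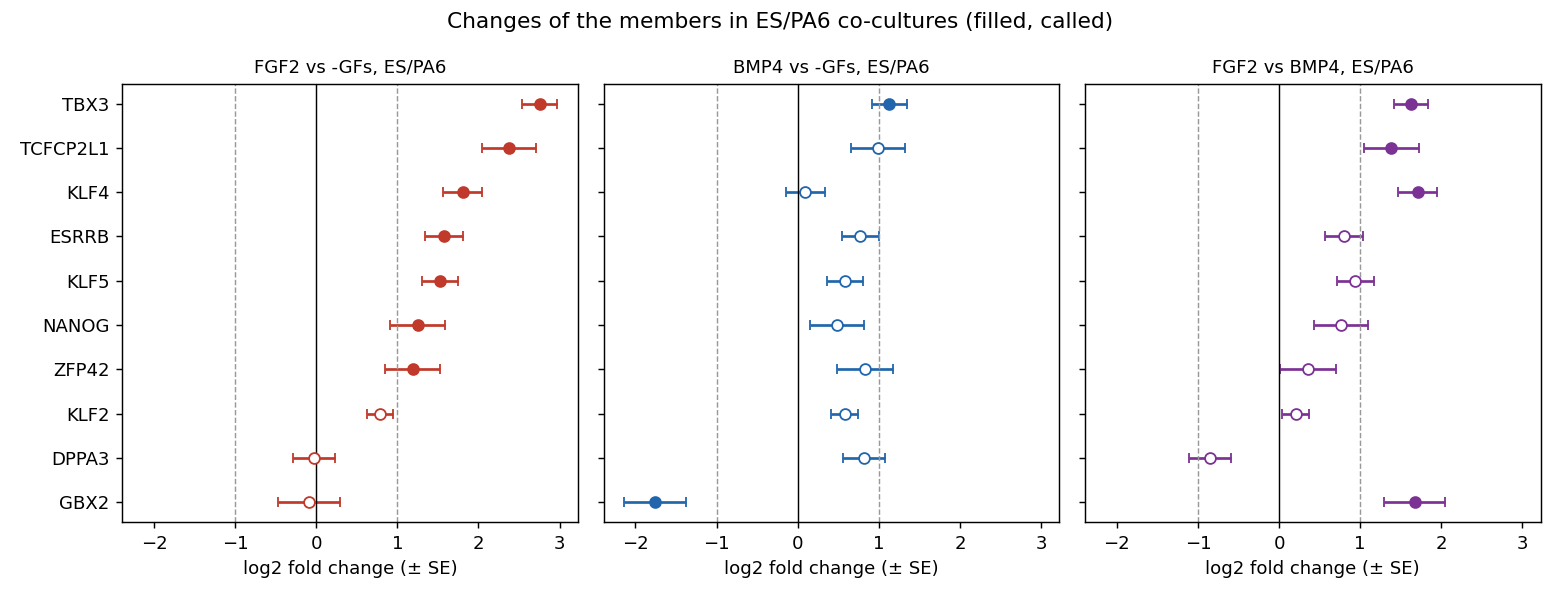
Log2 fold change ± SE of the 10 members in 3 comparisons of the ES/PA6 co-cultures, ordered by the FGF2 change; filled points were called (adjusted p under 0.1 and beyond the dashed lines at 1 and -1). Under FGF2, 7 members were called higher, and under BMP4 TBX3 was called higher and GBX2 lower.

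The size of these changes depended on the -GFs arrays. Replicate 2 was the lowest of the 3 -GFs arrays for 9 of the 10 members, all but GBX2. It was the lowest FGF2 array for 5 of the 10 and the lowest BMP4 array for 7. The share of all genes lowest on replicate 2 was not counted, so these counts are descriptions. On -GFs replicate 2 the mean log2 intensity of the 10 members was 10.86. It was 11.56 and 11.49 on the other -GFs arrays and 12.54 to 12.70 with FGF2. The 5 ES cell markers that could be tested (POU5F1, UTF1, L1TD1, TRIM71 and LIN28) had a mean of 11.82 on -GFs replicate 2, between the 12.04 and 11.64 of the others. The 10 PA6 stroma markers had 11.04 on it, against 10.93 and 10.81. Without -GFs replicate 2 the changes of NANOG and ZFP42 were 0.93 and 0.97 and were not called (adjusted p 0.176 and 0.206). NANOG was also lost without FGF2 replicate 1 or 3 (1.19 and 1.10). ZFP42 was lost without FGF2 replicate 1 or 2 (1.10 and 1.12) or without replicate set 2 (0.90), where NANOG stayed called. In the fit blocked on replicate number NANOG and ZFP42 were called (adjusted p 0.000467 and 0.0647). The other 5 calls held without any 1 of the FGF2 or -GFs co-culture arrays.

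BMP4 gave smaller values, and its 2 called members went opposite ways. TBX3 rose 2.19-fold, by 1.13 ± 0.213 on the log2 scale (adjusted p 0.0200), and GBX2 fell by 1.76 ± 0.379 (adjusted p 0.0426), where 0.760% of all genes were called. The other 8 members were positive and not called: TCFCP2L1 at 0.99, ZFP42 at 0.83, DPPA3 at 0.82, ESRRB at 0.77, KLF5 and KLF2 at 0.58, NANOG at 0.48 and KLF4 at 0.09. Their adjusted p ran from 0.123 for KLF2 to 0.959 for KLF4. At an unadjusted p under 0.05 the count was 8 of the 10 members, against 10.9% of all genes. Of the 8 members not called, 7 were higher with BMP4 in all 3 pairs of same-numbered arrays, KLF4 being the exception. The share of all genes with this arrangement was not counted, so the 7 are a description. In the fit blocked on replicate number TCFCP2L1, ESRRB, DPPA3, KLF2 and KLF5 passed the adjusted p (0.0259, 0.0292, 0.0501, 0.0681 and 0.0866) and stayed under the fold threshold. The block raised the calls over all genes from 125 to 215. The 3 BMP4 arrays were above the 3 -GFs arrays for 4 members (TBX3, ZFP42, KLF2 and ESRRB), an arrangement of 6.06% of all genes, and below them for GBX2, as for 6.97% of all genes. Neither call held without -GFs replicate 2, where TBX3 was at 0.94 (adjusted p 0.107) and GBX2 at -1.60 (adjusted p 0.164). In a fit of the co-culture arrays alone neither was called (adjusted p 0.187 and 0.156). GBX2 was also lost without -GFs replicate 1 (-1.51), BMP4 replicate 2 (-1.73) or BMP4 replicate 3 (-1.59), and TBX3 without BMP4 replicate 1 (0.96). Without -GFs replicate 3, 4 members were called, TCFCP2L1 (1.37) and DPPA3 (1.10) in addition. At its second probe TBX3 changed by 0.43 ± 0.163 and was not called.

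Both growth factors were set against the same 3 -GFs arrays, so the direct contrast of FGF2 with BMP4 was read next. Its fold changes do not use the -GFs arrays, but its SE and adjusted p do, through the pooled spread. KLF4 was higher with FGF2 by 1.71 ± 0.240, GBX2 by 1.67 ± 0.379, TBX3 by 1.62 ± 0.213 and TCFCP2L1 by 1.39 ± 0.335 (adjusted p 0.000533, 0.0163, 0.000284 and 0.0234). These were 4 of the 10 members, against 2.85% of all genes. KLF5 at 0.94, ESRRB at 0.80 and DPPA3 at -0.85 passed the adjusted p (0.0221, 0.0594 and 0.0757) and not the fold threshold, so DPPA3 alone was higher with BMP4. TCFCP2L1 was lost without BMP4 replicate 2 (1.17, adjusted p 0.116) and in a fit of the co-culture arrays alone (adjusted p 0.15), and GBX2 without the 3 arrays of replicate set 2 (1.58, adjusted p 0.163). NANOG, ZFP42 and KLF2 differed by 0.76, 0.36 and 0.20 and did not pass (adjusted p 0.245, 0.679 and 0.596), though NANOG was higher with FGF2 in all 3 pairs and passed the adjusted p with the replicate block (0.0124). KLF5 was called without FGF2 replicate 2 (1.02) or BMP4 replicate 3 (1.08), and DPPA3 without BMP4 replicate 1 (-1.06). By group mean, 8 members were in the order FGF2, BMP4, -GFs, though of these only TBX3 was called between BMP4 and -GFs. How many of all genes take this order was not counted, so the 8 are a description. DPPA3 was highest with BMP4, and GBX2 was highest in -GFs medium.

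In PA6 cells alone KLF4 fell with BMP4, and KLF2 and KLF4 were lower with FGF2 by less than the fold threshold. KLF2 measured 10.85, 10.99 and 10.87 in -GFs medium, 9.98, 9.96 and 10.09 with FGF2 and 10.46, 9.95 and 10.49 with BMP4. The 3 arrays of each treated group were below the 3 -GFs arrays, as for 17.5% of all genes with FGF2 and 10.3% with BMP4. KLF2 changed by -0.89 ± 0.162 with FGF2 and by -0.60 ± 0.162 with BMP4 (adjusted p 0.0012 and 0.0681), under the fold threshold. KLF4 measured 10.26, 10.23 and 9.96 in -GFs medium, 9.22, 9.36 and 9.30 with FGF2 and 9.25, 8.75 and 9.25 with BMP4, again with both treated groups below -GFs. It changed by -0.86 ± 0.240 with FGF2 (adjusted p 0.0237), under the fold threshold, and fell by 1.07 ± 0.240 with BMP4 (adjusted p 0.0255). At its other 2 probes the FGF2 change was -1.02 ± 0.223, which was called, and -0.92 ± 0.215. The BMP4 call was lost without PA6 -GFs replicate 1 (-1.01, adjusted p 0.102) or PA6 BMP4 replicate 2 (-0.90, adjusted p 0.136). TBX3 changed by 0.41 ± 0.213 with FGF2 and by -0.20 ± 0.213 with BMP4, and its arrays ran from 7.78 to 8.65 over the 3 groups. GBX2 measured 6.72, 4.91 and 6.34 with FGF2, detected on replicates 1 and 3, and was not called (0.89 ± 0.379), but was without PA6 FGF2 replicate 2 (1.43, adjusted p 0.00674). In the mono-cultures 0 members were called under FGF2 (5.27% of all genes; at an unadjusted p under 0.05 the count was 3 members, against 26.0% of all genes) and 1 under BMP4 (1.41% of all genes).

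The effect of FGF2 therefore differed between the culture types for several members, and this difference was tested as an interaction in the same fit. The change in ES/PA6 minus the change in PA6 was called for 7 of the 10 members, against 7.39% of all genes: KLF4 at 2.66 ± 0.339, TCFCP2L1 at 2.49 ± 0.474, TBX3 at 2.35 ± 0.301, ESRRB at 1.76 ± 0.328, KLF2 at 1.67 ± 0.229, ZFP42 at 1.33 ± 0.482 and KLF5 at 1.29 ± 0.318. For KLF2 and KLF4 the difference joins a positive change in co-culture to a negative one in stroma alone, while TCFCP2L1, ESRRB, KLF5 and ZFP42 were at background in PA6 at the main probe, so that no PA6 effect could be measured and the value rests on the co-culture change. The ZFP42 difference was lost without ES/PA6 -GFs replicate 1 or 2, FGF2 replicate 1 or 2, PA6 -GFs replicate 2 or 3, or PA6 FGF2 replicate 2 or 3 (1.02 to 1.45), and that of KLF5 without ES/PA6 -GFs replicate 2 (0.996). In the fit blocked on replicate number, the ZFP42 difference was not called (adjusted p 0.111) and that of NANOG was (1.05, adjusted p 0.0107, against 0.188 without the block). The BMP4 interaction was called for TBX3 at 1.34 ± 0.301 and KLF2 at 1.18 ± 0.229 (adjusted p 0.0763 and 0.041), 2 of 10 members against 0.559% of all genes. With the block 5 members were called, KLF4 (1.16), DPPA3 (1.11) and GBX2 (-1.96) in addition. Without ES/PA6 -GFs replicate 2 or PA6 -GFs replicate 2, 0 members were called (KLF2 at 1.03 and 1.14). TBX3 was lost without either of these and without ES/PA6 -GFs replicate 3, ES/PA6 BMP4 replicate 1 or 3, PA6 -GFs replicate 1 or any 1 PA6 BMP4 array (1.14 to 1.36).

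**Figure D3:**
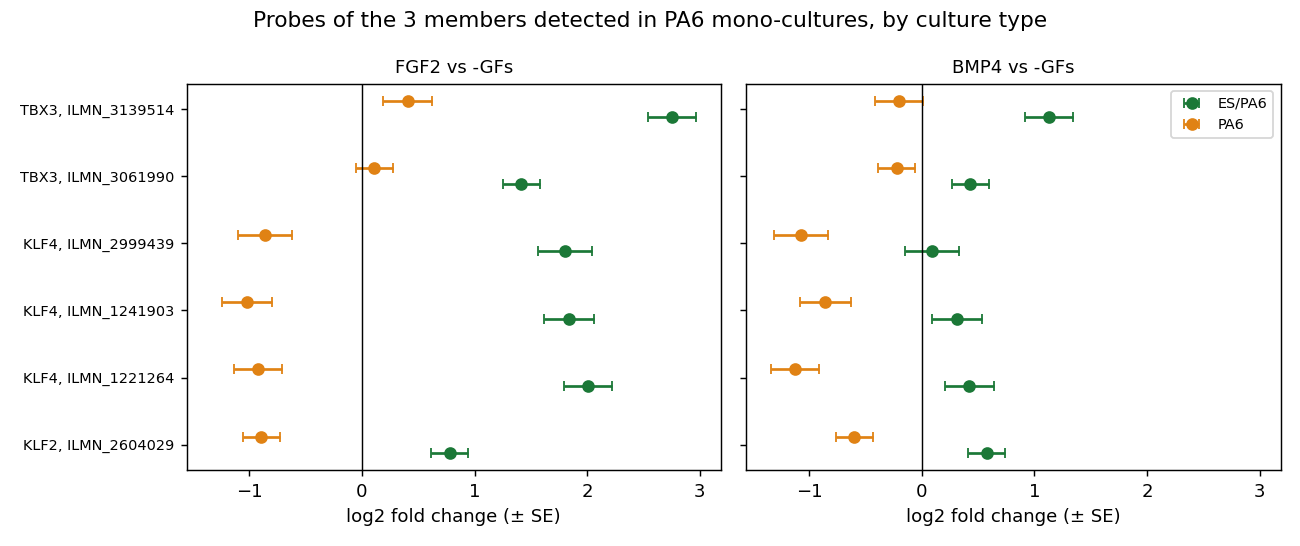
Log2 fold change ± SE of each kept probe of KLF2, KLF4 and TBX3, the members detected on all PA6 arrays, under FGF2 (left) and BMP4 (right), in co-cultures and in mono-cultures. Under FGF2 the KLF2 and KLF4 probes lie right of 0 in co-cultures (0.78 to 2.01) and left of 0 in mono-cultures (-0.86 to -1.02).

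Other genes of the naive state followed the members in part. Of 20 listed genes, 15 were tested, and 5 were called higher and 1 lower under FGF2, against 2.14% and 1.20% of all genes. JAM2, a junction adhesion molecule, rose by 1.67 ± 0.284, FBXO15, an F-box protein and target of OCT4 and SOX2, by 1.38 ± 0.206, NR5A2, a nuclear receptor that binds the Oct4 gene, by 1.34 ± 0.191, SPIC, an ETS family factor, by 1.22 ± 0.189 and MANBA, a lysosomal mannosidase, by 1.06 ± 0.166. AIRE, known as a thymic regulator, fell by 1.15 ± 0.324. The median of the 15 was 0.67 under FGF2 and 0.38 under BMP4, where 1 gene was called, PECAM1 (1.17, adjusted p 0.0994), an adhesion molecule of ES and endothelial cells.

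Of the 8 tested genes shared by naive and primed cells, 0 were called higher under FGF2 in the limma fit and 1 lower, the RNA-binding protein LIN28, which fell by 1.63 ± 0.172 (adjusted p 2.34e-05). POU5F1, which encodes OCT4, changed by -0.10 ± 0.153, SOX2 by 0.45 ± 0.199, SALL4 by 0.23 ± 0.128, CDH1 by -0.46 ± 0.186, L1TD1 by -0.43 ± 0.335 and TRIM71 by -0.01 ± 0.192, and none of these passed. UTF1, at -0.73 ± 0.142, passed the adjusted p (0.00509) and not the fold threshold. The median of the 8 was -0.27. At an unadjusted p under 0.05 the count was 1 higher and 3 lower, against 17.8% of all genes in either direction. Of the 11 tested formative and primed epiblast genes, 9 were called lower under FGF2 and 0 in either direction under BMP4 in the limma fit. Of all genes 1.20% were called lower under FGF2 and 0.760% in either direction under BMP4. Under BMP4 the count at an unadjusted p under 0.05 was 6 lower and 1 higher, CLDN6 (0.46), against 10.9% of all genes. FGF5, the ligand that marks the postimplantation epiblast, fell by 4.17 ± 0.260, and the change was -3.01 ± 0.231 for POU3F1, -2.57 ± 0.210 for the WNT effector LEF1, -2.51 ± 0.154 for OTX2 and -2.20 ± 0.124 for the DNA methyltransferase DNMT3B. CDH2 and SOX3, at 0.18 and -0.79, were not called. Under BMP4 POU3F1 changed by -0.92 and DNMT3B by -0.59 (adjusted p 0.0815 and 0.0365), under the fold threshold. These lists were drawn up with results of these data known and their counts are descriptions.

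**Figure D4:**
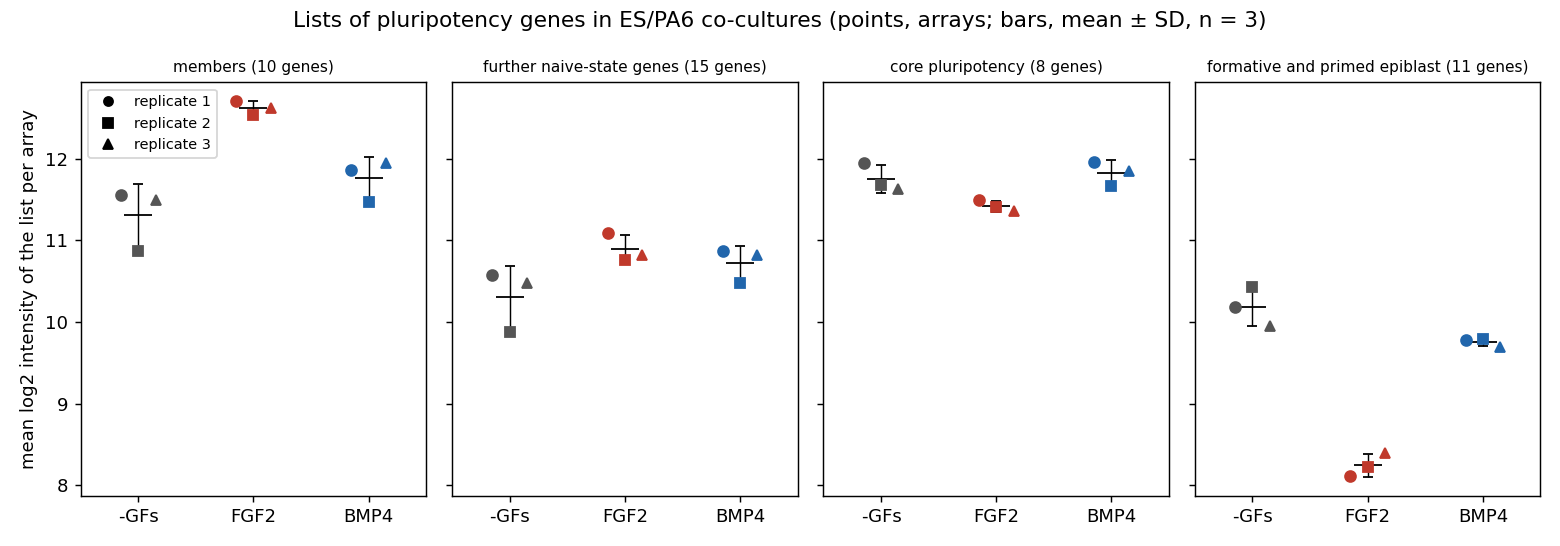
Mean normalized log2 intensity of 4 gene lists on each of the 9 ES/PA6 arrays; symbols give the replicate number and bars the mean ± SD (n = 3). The members averaged 12.62 with FGF2, 11.76 with BMP4 and 11.30 in -GFs medium, while the formative and primed genes averaged 8.24, 9.75 and 10.19.

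In the pathways known to act on these factors, SOCS3, a direct target and inhibitor of LIF/STAT3 signalling, rose by 2.17 ± 0.148 under FGF2 in the co-cultures (adjusted p 3.47e-07) and was the 1 gene called of the 6 tested in that list. LIF, STAT3, LIFR and IL6ST changed by 0.76, 0.57, 0.58 and 0.11 and were not called. JAK1, the remaining gene, was negative and not called. At an unadjusted p under 0.05 in the limma fit 3 of the 6 passed, all higher, against 17.8% of all genes. In PA6 alone SOCS3 rose with FGF2 as well, by 2.85 ± 0.148, again the 1 gene called of the 6, and its interaction (-0.68, adjusted p 0.0484) stayed under the fold threshold. Under BMP4 in the co-cultures, 0 of the 6 were called in the limma fit, and SOCS3 changed by -0.35. At an unadjusted p under 0.05 the count was 2 lower and 0 higher, against 10.9% of all genes in either direction. Of the 5 tested genes that report ERK activity, 0 were called under either factor in the co-cultures in the limma fit. At an unadjusted p under 0.05 the count was 1 for FGF2 and 0 for BMP4, against 17.8% and 10.9% of all genes. In PA6 alone FGF2 raised DUSP6 by 2.39 ± 0.193 and ETV5 by 2.25 ± 0.181, and EGR1 fell by 2.16 ± 0.349.

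Markers of other cells were read beside the members. In the co-cultures the 5 ES cell markers averaged 11.64 to 12.04 in -GFs medium, 11.14 to 11.33 with FGF2 and 11.69 to 11.98 with BMP4, lower with FGF2 where the members were higher. LIN28 was the 1 marker called, and the other 4 averaged 11.93 to 12.28, 11.61 to 11.91 and 11.95 to 12.31 in the same order. The 10 stroma markers averaged 10.81 to 11.04, 10.30 to 10.55 and 10.50 to 10.74, with THY1 called lower under FGF2 (-1.08) and COL3A1 under BMP4 (-1.16). The 3 tested adipocyte markers, which PA6 cells express, averaged 7.48 to 9.87, 6.39 to 7.64 and 10.23 to 12.52. The 3 tested early neural markers averaged 6.59 to 9.50, 6.14 to 9.18 and 5.77 to 6.21, and the 2 tested mesoderm markers 5.64 to 6.25, 5.73 to 6.24 and 6.14 to 7.14. The 3 tested extraembryonic endoderm markers averaged 7.08 to 7.32, 7.02 to 7.88 and 7.10 to 7.50. The part of these shifts in the member values was not tested.

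Some genes tracked the members across the 9 co-culture arrays. The 3 genes with the highest Pearson correlation of log2 intensity with TBX3 were STAC2 (0.997), MYBL2 (0.986) and SLC1A1 (0.985), with ESRRB TCL1 (0.997), MTF2 (0.996) and KLF5 (0.987), and with NANOG PIM3 (0.988), DNAJC6 (0.979) and SLC2A3 (0.978). The 9 arrays share treatments and replicate sets, so these are descriptions of shared patterns. Among the members themselves, KLF5 and ESRRB gave 0.987 and ZFP42 and KLF2 0.985.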

How the data were processed

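The authors hybridised biotinylated cRNA to the arrays, and the deposited intensity values are linear bead signals before normalization, each with a deposited detection p-value against negative control beads (GenomeStudio 2011.01, per the labels). A further 5 stray lines were left out. Intensities were background-corrected and quantile normalized by neqc of limma 3.58.1 in R 4.3.3 (offset 16), which gave log2 intensities and understates changes of dim genes; the authors used a cubic spline, tried here as an alternative. Probes detected (p under 0.05) on 3 or more of the 18 arrays were kept, and the probe with the largest mean stood for a gene. One limma fit of 6 group means gave all comparisons (adjusted p under 0.1, absolute log2 fold change over 1). Other probes were adjusted over all kept probes. "At least" folds use each dim array's lowest detected value. Intervals use the fit's pooled spread.

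Nothing in the labels ties the replicates to separate thaws or passages, so p-values measure the spread between these cultures. With 3 arrays a group, an exact permutation test could not go below 0.1. No 2 arrays were identical (0 pairs). Residuals of same-numbered co-culture arrays correlated in 9 of 9 pairs (0.325 to 0.521), while in the mono-cultures r was 0.0628 to 0.164. The labels describe 1 well per condition per replicate, which by itself does not pair the arrays. The authors named no block, so the main fit had none and a blocked fit was an alternative. With the block, the members at an adjusted p under 0.1 in the co-cultures went from 2 to 7 for BMP4 against -GFs. For FGF2 against -GFs they stayed at 8. The members, lists and rules of naming (all 10 members, the listed genes and the 3 nearest patterns of NANOG, TBX3 and ESRRB) were chosen with earlier results of these data known.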

Additional observations from a re-analysis of the deposited data

Results flagged for a closer look

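The interaction test of the limma fit, which sets the change in ES/PA6 against that in PA6, was called for 9 values. TCFCP2L1, ESRRB, ZFP42 and KLF5 were at background in PA6 at the main probe, so for them no PA6 effect could be measured and the value rests on the co-cultures. For FGF2 the change in ES/PA6 minus that in PA6 was 2.66 for KLF4, 2.49 for TCFCP2L1, 2.35 for TBX3, 1.76 for ESRRB, 1.67 for KLF2, 1.33 for ZFP42 and 1.29 for KLF5 on the log2 scale. For BMP4 it was 1.34 for TBX3 and 1.18 for KLF2. KLF2 and KLF4 were the members whose 3 co-culture arrays lay above -GFs under FGF2 while their 3 mono-culture arrays lay below -GFs.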

How the results depend on the processing

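Of the 58 member values followed through the alternatives, 30 were called, and 18 of those 30 were called in every alternative that tested the gene. Interactions were followed only where called, and comparisons with no detection in either group were left out. The 30 of 58 is therefore not a share of all member tests. Each array of the groups compared was left out in turn, and arrays of other groups were always kept. The number of members called then ranged from 5 to 7 for FGF2 against -GFs in the co-cultures (7 with all arrays), 0 to 4 for BMP4 against -GFs (2), 3 to 5 for FGF2 against BMP4 (4), 0 to 1 for FGF2 in PA6 (0), 0 to 1 for BMP4 in PA6 (1), 7 to 8 for ES/PA6 against PA6 (7), 5 to 8 for the FGF2 interaction (7) and 0 to 3 for the BMP4 interaction (2). Detection on all 18 arrays left 3 members in the test, KLF2, KLF4 and TBX3, of which 2 passed in the co-cultures for FGF2, 1 for BMP4, 2 for FGF2 against BMP4, 0 for ES/PA6 against PA6 and 3 for the FGF2 interaction. For BMP4 in the co-cultures 1 member was called with the cubic spline, with quantile normalization without background correction, with the mean of all kept probes and without replicate set 2 (this last chosen after seeing the data), and 0 with the co-culture arrays alone. Quantile normalization without background correction and the cubic spline gave 0 for BMP4 in PA6. With no fold threshold 7 were called for FGF2 against BMP4, 2 for FGF2 in PA6 and 2 for BMP4 in PA6. For the BMP4 interaction 1 was called with median scaling, with no filter on dim probes and at an adjusted p under 0.05, and the replicate block gave 5. The block also moved the count over all genes from 125 to 215 for BMP4 in the co-cultures and from 92 to 305 for the BMP4 interaction, and beside the interactions it changed the call of no member. For FGF2 against BMP4 KLF5 was called with median scaling (1.09). The cause of these shifts was not tested. The FGF2 call of ESRRB fell below the fold threshold with the mean of its probes (0.80), of which 1 is near background.

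Values that changed sign were not called under any setting. With median scaling, which moves the median of all genes by 0.07 for FGF2, DPPA3 under FGF2 was 0.063 and GBX2 0.015. Array weights gave 0.022 for DPPA3, and without replicate set 2 GBX2 was 0.011. Leaving out 1 array turned the sign of DPPA3 under FGF2 (0.054 to 0.25 in those fits), GBX2 (0.074 to 0.16), KLF4 under BMP4 (-0.12 to -0.041), ZFP42 under FGF2 in PA6 (0.039 to 0.17) and TBX3 in ES/PA6 against PA6 (-0.096 to -0.043, and -0.23 with the mean of its probes). The number of arrays and the offset limit what dim probes can show.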
